A study of Mus musculus with 20 samples.

Results

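The 6 genes described here belong to the clade B serpins and were followed through 20 bulk RNA-sequencing libraries of mouse kidney tumors and normal kidney. They are Serpinb9b, Serpinb9, Serpinb1a, Serpinb6a, Serpinb6b and Serpinb8. Serpinb9b was selected on its tumor and normal counts, as a gene with one of the largest rises in tumors, and its 5 companions were picked as relatives with results of the same contrast known. The 6 genes are 6 of the 28 clade B serpins, and of the 54532 genes, in the count table. Because the contrast of tumor with normal kidney chose them, their values in it are given as a description with no test.

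The study set out to build an immunocompetent mouse model of clear cell kidney cancer by somatic gene editing. Mice carrying LSL-Cas9/+ and Pax8 Cre/+ on a C57BL/6J background had the kidney injected with adeno-associated viruses that encode sgRNAs against Vhl, Pbrm1, Keap1 and Tsc1. Tumors of 10 mice and normal kidney regions of the same mice gave 10 libraries each. Both groups therefore share the alleles. By the study's methods mice of either sex were injected at 8 to 12 weeks of age, and their age when tissue was taken is not given in the sources used here. Cre is driven by the Pax8 promoter, so Cas9 is made only in Pax8-expressing cells, and these include cells that took up no virus. Both kinds of sample were whole pieces of tissue, and the labels do not say which tumor and which normal region came from the same mouse.

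Tumor libraries held 18447394 to 24902973 counts, normal libraries 14737516 to 26679704. Levels are given as CPM, counts per 1000000 counts of a library, scaled with trimmed-mean factors between 0.749 and 1.14, and levels of different genes are compared only as RPKM, which is CPM per kilobase of gene length. Tumor 7 and normal kidneys 9, 7 and 5 stood apart from their groups. The median correlation of log2 CPM with the rest of the group was 0.873 for tumor 7, 0.889 for normal kidney 9, 0.897 for normal kidney 7 and 0.919 for normal kidney 5, and at least 0.943 for the others. Tumor 7 carried the highest summed levels of fibroblast markers (3793 CPM), macrophage markers (2658 CPM) and neutrophil markers (426 CPM) of the 20 libraries. Normal kidney 7 had the highest summed level of the tubule injury list, 5086 CPM.

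Clade B serpins are intracellular protease inhibitors. A protease that cleaves the exposed reactive centre loop of a serpin is trapped in a covalent complex, and both molecules are used up. Members of the clade protect leukocytes, epithelial and other cells from proteases of their own granules, or from the granzymes that cytotoxic lymphocytes deliver into target cells, and the mouse genome holds more copies of several of them than the human genome does.

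Of the 28 clade B serpins of the table, 16 lie in 1 cluster of 1160703 bases on chromosome 13, and the other 12 lie on chromosome 1. The cluster starts with Serpinb1a at chr13:32842092-32851185 and ends with Serpinb6a at chr13:33917918-34002794 (GRCm38, both on the minus strand). Serpinb6b (chr13:32965209-32979067), Serpinb9 (chr13:33003250-33017957) and Serpinb9b (chr13:33027416-33041884) follow each other on the plus strand. Serpinb8, at chr1:107590006-107610484 on the plus strand, is the only one of the 6 outside the cluster. These are whole-gene intervals with exons and introns.

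Promoters are shown because the 6 genes stood higher in tumors together, and their sequences show what the neighbours share and where they differ. RefSeq promoter sequences of GRCm38.p6, from 250 bases before to 50 bases after the start of transcription, were found for 5 of the 6 genes, with 2 entries for Serpinb6a. Capitals mark matches, on either strand, to TGACNNNGC (the core of the antioxidant response element), ACGTG (the core of the hypoxia response element) and TGANTCA (the AP-1 site), where N is any base, or to TTTC followed by any 2 bases and a further TTTC (the core of the interferon-stimulated response element). Serpinb9b at chr13:33027164-33027463 (plus strand) and Serpinb9 at chr13:33004291-33004590 (plus strand) are shown as neighbours, Serpinb9 having the promoter with the most bases in common with that of Serpinb9b. Serpinb6a at chr13:34002745-34003044 and at chr13:33936034-33936333 (both minus strand) and Serpinb8 at chr1:107589756-107590055 (plus strand) are shown for their motif matches.
Serpinb9b: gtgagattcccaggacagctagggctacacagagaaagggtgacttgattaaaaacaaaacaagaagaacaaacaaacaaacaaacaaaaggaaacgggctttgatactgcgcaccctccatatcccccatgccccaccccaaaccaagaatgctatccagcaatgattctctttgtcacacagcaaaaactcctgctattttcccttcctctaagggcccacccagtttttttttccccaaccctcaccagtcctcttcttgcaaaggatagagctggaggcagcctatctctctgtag
Serpinb9: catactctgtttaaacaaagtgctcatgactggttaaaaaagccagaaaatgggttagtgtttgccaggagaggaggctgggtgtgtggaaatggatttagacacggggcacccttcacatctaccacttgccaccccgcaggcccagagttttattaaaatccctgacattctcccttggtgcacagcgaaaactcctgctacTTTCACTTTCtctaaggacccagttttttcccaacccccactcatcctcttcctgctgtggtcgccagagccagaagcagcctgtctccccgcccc
Serpinb6a, distal start: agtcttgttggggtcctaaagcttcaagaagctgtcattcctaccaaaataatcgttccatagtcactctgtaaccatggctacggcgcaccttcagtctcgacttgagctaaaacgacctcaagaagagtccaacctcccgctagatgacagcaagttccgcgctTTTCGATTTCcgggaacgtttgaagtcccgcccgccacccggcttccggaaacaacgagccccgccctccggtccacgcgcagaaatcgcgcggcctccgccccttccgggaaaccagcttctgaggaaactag
Serpinb6a, proximal start: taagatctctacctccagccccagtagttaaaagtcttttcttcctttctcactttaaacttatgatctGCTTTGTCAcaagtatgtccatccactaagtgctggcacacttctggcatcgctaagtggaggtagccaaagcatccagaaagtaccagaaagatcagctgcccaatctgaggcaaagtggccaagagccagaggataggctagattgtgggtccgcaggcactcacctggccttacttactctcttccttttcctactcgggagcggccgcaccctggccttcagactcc
Serpinb8: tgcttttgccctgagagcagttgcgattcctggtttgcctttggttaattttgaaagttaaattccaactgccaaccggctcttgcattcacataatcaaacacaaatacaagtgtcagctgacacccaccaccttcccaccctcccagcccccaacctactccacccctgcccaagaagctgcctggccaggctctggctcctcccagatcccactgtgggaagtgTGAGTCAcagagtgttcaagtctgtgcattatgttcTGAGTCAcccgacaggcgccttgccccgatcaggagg

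The promoters of Serpinb9b and Serpinb9 shared 187 identical bases in 277 aligned bases, 62.3% of the 300-base window. The 29 other promoters of clade B serpins shared between 31.3% and 53.7% of the window with that of Serpinb9b. Within the aligned bases alone a Serpinb1c promoter was more alike (78.9% of 166 bases) than that of Serpinb9 (67.5% of 277). None of the 4 motifs occurred in the Serpinb9b promoter or in that of Serpinb6b. The Serpinb9 promoter held 1 interferon-stimulated response element core, TTTCACTTTC, from position -46 relative to the start, and the distal Serpinb6a promoter held another, TTTCGATTTC, from position -84. An antioxidant response element core lay on the opposite strand of the proximal Serpinb6a promoter, and the Serpinb8 promoter held 2 AP-1 sites, from positions -23 and 13. Of 32851 mouse promoters of this length, 12.4% held the antioxidant core, 19.6% the hypoxia core, 3.44% the interferon core and 7.81% the AP-1 site. A match describes letters in the window only, and no match says only that these letters are not in it.

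Serpinb9b, an inhibitor of granzyme M, was close to absent from normal kidney and present in every tumor. Its counts ran from 691 to 2894 in tumors and from 0 to 9 in normal kidneys, with 3 normal libraries at 0. In tumors the lowest, median and highest levels were 29.7, 83.3 and 146 CPM. In normal kidneys they were 0, 0.118 and 0.440 CPM, where a count of 0 allows up to 0.156 to 0.180 CPM in the 3 libraries concerned (3 counts per library, counting error only). Tumors 1, 9 and 8 were highest and tumors 4 and 7 lowest, and the groups lay far apart, so that the gene passed the filter on low counts only through the tumors. The fitted log2 fold change, tumor against normal kidney, was 8.76 with a standard error of 0.51. It lay between 8.62 and 8.96 when any 1 library was left out.

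Serpinb9, which blocks granzyme B and is carried by cytotoxic lymphocytes and dendritic cells themselves, was present in both tissues. The lowest, median and highest levels were 73.6, 149 and 231 CPM in tumors against 35.6, 45.3 and 68.8 CPM in normal kidneys. Tumor 7 was the lowest tumor and tumor 3 the highest, and even tumor 7 lay above normal kidney 7, the highest normal library. The log2 fold change was 1.68 (standard error 0.18).

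Serpinb6b, an inhibitor of granzyme A, ranged more widely among tumors than among normal kidneys. Its lowest, median and highest levels were 31.3, 83.0 and 144 CPM in tumors against 10.9, 14.8 and 20.9 CPM in normal kidneys. Tumors 6 and 7 were the low tumors and tumors 8 and 2 the high ones, with no overlap between the groups. The coefficient of variation was 41.4% in tumors and 20.7% in normal kidneys, and the log2 fold change was 2.50 (standard error 0.23).

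Serpinb6a, an inhibitor of cathepsin G that many tissues carry, had the highest RPKM of the 6 in every tumor. The lowest, median and highest levels were 427, 561 and 901 CPM in tumors against 47.1, 61.2 and 325 CPM in normal kidneys. Tumor 5 was the highest library, and normal kidney 7 stood far above the next normal kidney, number 8 with 101 CPM, yet below every tumor. The log2 fold change was 2.62 (standard error 0.32), and 3.08 (standard error 0.20) without normal kidney 7. It was 3.15 without tumor 7, normal kidney 7 and normal kidney 9, a set chosen after seeing the data.

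Serpinb1a, which inhibits neutrophil elastase, proteinase 3 and cathepsin G, was the one gene whose groups overlapped widely. Its lowest, median and highest levels were 51.3, 77.9 and 101 CPM in tumors against 14.9, 23.6 and 87.0 CPM in normal kidneys. Only tumors 2, 3 and 8 lay above normal kidney 7, whereas the lowest tumor, number 10, lay above the 9 other normal kidneys, of which number 5 was highest with 48.7 CPM. The log2 fold change was 1.30 (standard error 0.27), and between 1.22 and 1.63 with 1 library left out.

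Serpinb8, whose human counterpart inhibits the proprotein convertase furin, had the lowest RPKM of the 6 in every tumor. Its lowest, median and highest levels were 24.1, 32.0 and 54.0 CPM in tumors against 11.9, 13.3 and 25.1 CPM in normal kidneys. Tumors 6 and 3 were high, and normal kidney 6 lay above tumors 8 and 5, so that 8 of the 10 tumors were above every normal kidney. The log2 fold change was 1.21 (standard error 0.17).

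For Serpinb9b, Serpinb9, Serpinb6a and Serpinb6b every tumor lay above every normal kidney. The same held for 902 of the 15354 genes tested, 5.87%, and since these genes were chosen with this contrast known, nothing is read from their count. All 6 kept a positive fold change with library totals as scaling and with DESeq2. In bulk tissue a higher level in more cells and more RNA per cell cannot be told apart, and the same holds for fewer cells and less RNA per cell.

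**Figure D1:**
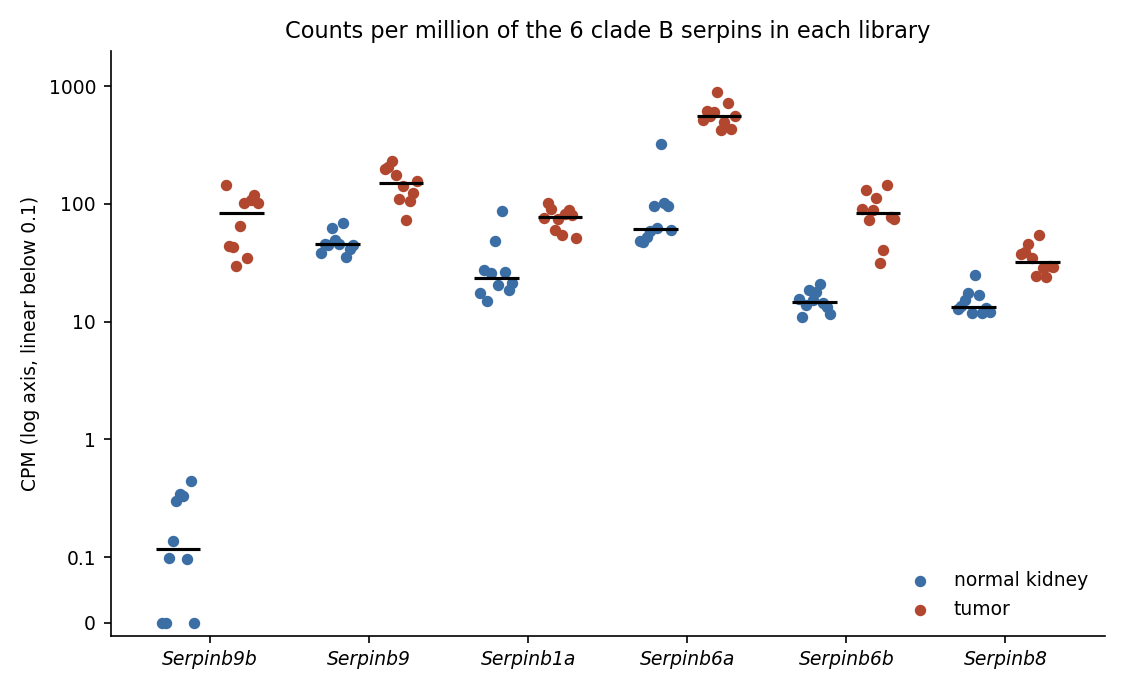
Level of each of the 6 clade B serpins in each library, in CPM on a log axis that is linear below 0.1, with 10 normal kidneys (blue) and 10 tumors (red) per gene and the median as a black line. Serpinb9b is at 0 to 0.440 CPM in normal kidneys and at 29.7 to 146 CPM in tumors, and the groups overlap for Serpinb1a and Serpinb8.

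Set per length, the mean shares of Serpinb6a and Serpinb9b in the clade's sum were higher in tumors than in normal kidneys. Those of Serpinb9, Serpinb1a and Serpinb8 were lower, and that of Serpinb6b was level within its spread. These differences were not tested. Since the 6 genes make up nearly all of the clade's sum and were chosen for this contrast, nothing is read from the rise of that sum. Summed over the 28 clade B serpins, RPKM was 259 ± 40.7 (SD, n = 10) in tumors against 55.0 ± 28.3 (SD, n = 10) in normal kidneys, with 191.5 in the lowest tumor and 132.6 in normal kidney 7, the highest normal library. The 6 genes made up 94.9% to 99.3% of that sum in tumors and 98.3% to 99.7% of it in normal kidneys. Serpinb6a led in tumors with 41.6% ± 6.44 (SD, n = 10) of the clade's RPKM, ahead of Serpinb9 with 16.9% ± 5.14, Serpinb6b with 14.2% ± 4.19, Serpinb1a with 12.8% ± 2.81, Serpinb9b with 9.26% ± 4.84 and Serpinb8 with 2.89% ± 1.08. The shares of Serpinb9, Serpinb6b, Serpinb1a and Serpinb9b in tumors differed by less than their spread from 1 neighbour to the next. In normal kidneys Serpinb6a (29.2% ± 8.30), Serpinb9 (27.1% ± 6.20) and Serpinb1a (23.1% ± 5.50) were level within their spread, Serpinb6b held 13.4% ± 3.35 and Serpinb8 6.38% ± 2.34, and Serpinb9b 0.0929% ± 0.0952. In single tumors the share of Serpinb9b ran from 3.56% in tumor 4 to 15.5% in tumor 1.

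**Figure D2:**
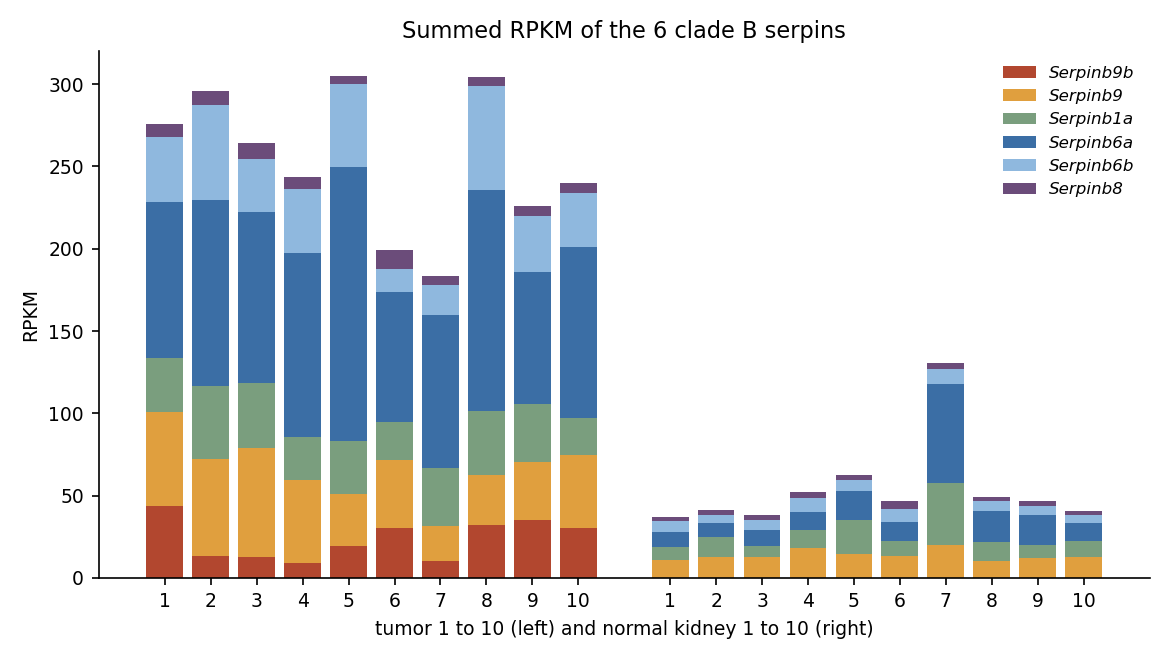
RPKM of the 6 clade B serpins stacked for each library, tumors 1 to 10 at the left and normal kidneys 1 to 10 at the right. Serpinb6a (dark blue) is the thickest layer in every tumor, Serpinb9b (red) cannot be seen in normal kidneys, and normal kidney 7 stands above the other normal kidneys.

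Normal kidneys 7, 5 and 8 carried far more RNA of the tubule injury list (Havcr1, Lcn2, Vcam1, Sox9 and Krt20, markers of damaged tubules) than the rest, with summed levels of 5086, 3056 and 2040 CPM. Normal kidney 9 had 316 CPM, the other 6 between 28.2 and 109 CPM, and tumors between 264 and 1612 CPM. In the same 3 libraries Serpinb6a stood at 325, 95.2 and 101 CPM against a median of 61.2 CPM for normal kidneys, but normal kidney 9 had 96.0 CPM. Serpinb1a stood at 87.0, 48.7 and 26.6 CPM against a median of 23.6 CPM, but normal kidney 2, with the lowest injury sum, had 27.3 CPM. Serpinb9 was 68.8, 49.6 and 35.6 CPM against a median of 45.3 CPM, at once the highest and the lowest normal library. Serpinb9b stayed at 9, 6 and 2 counts there, with 7 counts in normal kidney 9. Serpinb8 was 16.8, 11.9 and 11.9 CPM in the 3 libraries against a median of 13.3 CPM, and Serpinb6b was 20.9, 15.2 and 14.4 CPM against a median of 14.8 CPM. Of the 5 injury genes, Vcam1 was called higher in tumors (log2 fold change 1.93, edgeR adjusted p = 5.48e-09) and Lcn2, the gene with the most CPM in the list, lower (-5.00, edgeR adjusted p = 0.00491), and 3 were not called. Of all genes tested 23.6% were called higher and 23.8% lower. The part of tubule injury in the levels of Serpinb6a and Serpinb1a was not tested.

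**Figure D3:**
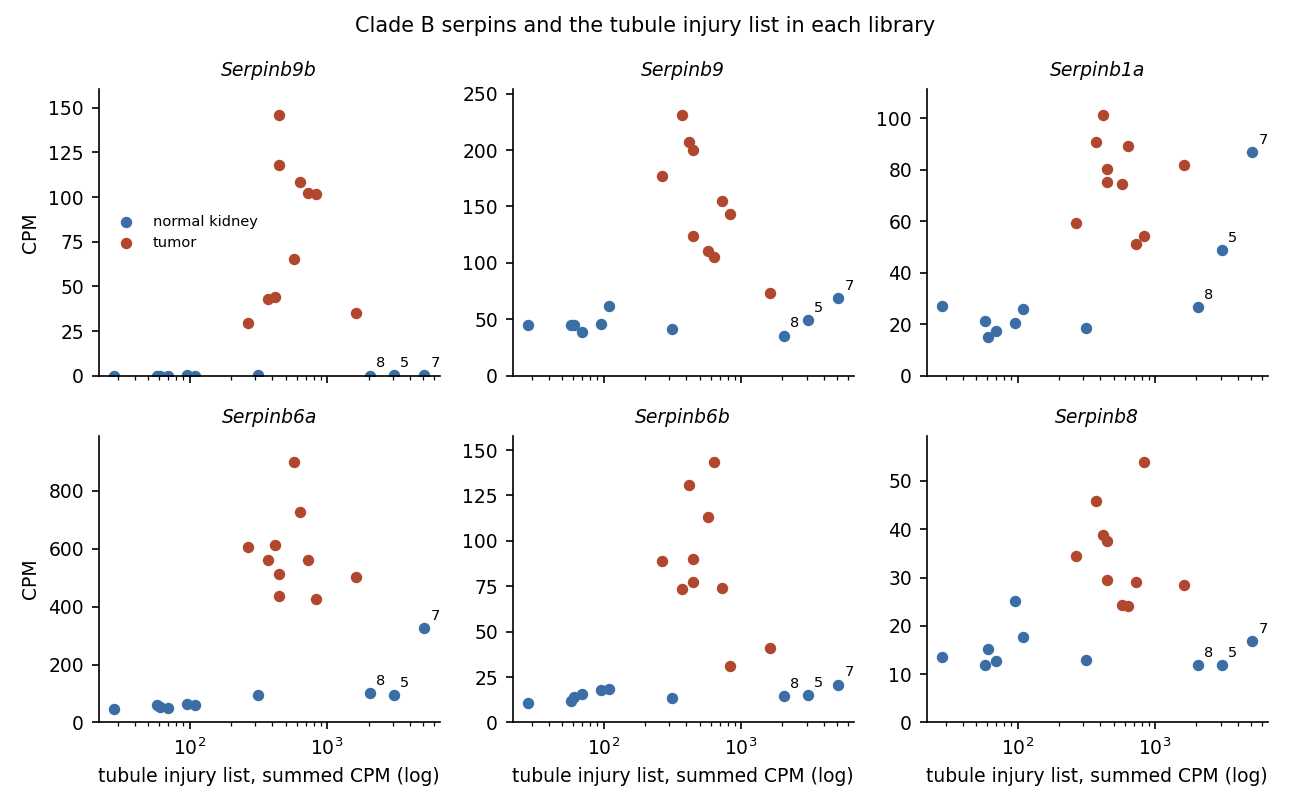
CPM of each of the 6 clade B serpins against the summed CPM of the tubule injury list (log axis), with 10 normal kidneys in blue, 10 tumors in red and normal kidneys 5, 7 and 8 numbered. Normal kidney 7 is the highest normal library for Serpinb6a, Serpinb1a, Serpinb9 and Serpinb6b, while Serpinb9b stays under 0.5 CPM in all normal kidneys.

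The other 22 clade B serpins were sparse. Of these, 8 had no count in any library (Serpinb13, Serpinb3a, Serpinb3b, Serpinb3c, Serpinb3d, Serpinb11, Serpinb1-ps1 and Serpinb6d), and only Serpinb9e passed the filter, through the tumors alone. Serpinb9e, a neighbour of Serpinb9b in the cluster, had 24 to 354 counts in tumors and 0 to 19 in normal kidneys, and its mean level was 4.84 ± 4.09 CPM (SD, n = 10) in tumors against 0.126 ± 0.216 CPM in normal kidneys. Tumors 9, 6 and 4 had the most and normal kidney 7 held 19 of the 30 normal counts. Its log2 fold change was 5.07 (standard error 0.71, edgeR adjusted p = 5.36e-06), higher in 10 of 10 tumors than in any normal kidney, and 6.10 without normal kidney 7. A gene that passes the filter only through 1 group has to differ between the groups, so this call adds little.

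Low counts of further genes of the Serpinb9 group followed the same side. Serpinb9f had 7 to 108 counts in tumors and none in 8 of the normal kidneys, with 24 of its 27 normal counts in normal kidney 7. Serpinb9c had 6 to 40 counts in tumors and 0 to 3 in normal kidneys, and Serpinb9g 2 to 27 and 0 to 4. Serpinb9d had 27 counts over 7 tumors and none in normal kidneys. Serpinb1b had 1 to 24 counts in tumors and 0 to 4 in normal kidneys, whereas Serpinb1c, Serpinb6c, Serpinb6e, Serpinb7, Serpinb10 and Serpinb12 had at most 15 counts in any library. Serpinb2, an inhibitor of plasminogen activators, had 156 counts in tumor 7 and at most 4 elsewhere, and Serpinb5 had 73 counts in tumor 7 and 52 in normal kidney 7. Genes under 1 CPM were named here after their values were seen. Without the filter on low counts 7 of the 22 were called higher and none lower by edgeR, beside 4146 higher and 4929 lower among all 32383 genes then tested. Genes with no count in any library, among them 8 of the 22, were not tested. Each of the 7 had a mean under 0.13 CPM in normal kidneys, so that a call lower in tumors was hardly possible. Of the 7, Serpinb2 (edgeR adjusted p = 0.0218) rests on tumor 7, and Serpinb9d is set against 0 counts in every normal kidney. With tumor 3, tumor 10 or any normal kidney but number 7 left out Serpinb9f passed the filter and was called as well.

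Reads of close copies can be miscounted, so the sequences of the transcripts were compared. No stretch of 150 bases in the GENCODE M21 transcripts of any of the 6 genes occurred in a transcript of another gene, and of the 50-base stretches 2.92% did for Serpinb6b, 2.81% for Serpinb1a, 0.751% for Serpinb6a, 0.478% for Serpinb9b, 0.378% for Serpinb9 and 0.165% for Serpinb8. By contrast, 38.6% of the 150-base stretches of Serpinb9f and 30.9% of those of Serpinb9g occurred in each other, in Gm11397 or in Serpinb9e, 13.6% of those of Serpinb9c in Gm11385, and 2.03% of those of Serpinb9e in Serpinb9d or Serpinb9f. Counts of Serpinb9c, Serpinb9d, Serpinb9e, Serpinb9f and Serpinb9g are therefore uncertain as to which copy they came from. Serpinb9b overlaps the antisense gene Gm36099 over 3359 bases, and Serpinb6a overlaps 1110046J04Rik, Nqo2 and Ripk1 on the opposite strand. The strand setting of the counting is not given in the sources used here, so reads of such pairs cannot be told apart with certainty. Gm36099 had at most 19 counts in a tumor and none in normal kidneys, against 691 to 2894 in tumors for Serpinb9b.

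The clade B genes of the cluster could share their difference with whatever lies around them, so the genes whose start was within 1000000 bases of that of Serpinb9b were listed. Of these 50 genes 9 were tested, 4 of them among the 6 serpins. Across all 15354 genes tested, 3631 were called higher in tumors (23.6%) and 3661 lower (23.8%), 7292 in either direction (47.5%), with a median log2 fold change of -0.02. With library totals as scaling the higher genes were 38.5% of the calls, against 49.8% with trimmed-mean factors. Of the 5 tested neighbours outside the 6, 3 were called higher and none lower by edgeR, with a median log2 fold change of 0.35. Serpinb9e and 1110046J04Rik passed the filter through the tumors alone, so that their calls say little about the neighbourhood, and Ripk1 is the only call beside them. The 3 were Serpinb9e, the antisense gene 1110046J04Rik inside Serpinb6a (log2 fold change 2.48, standard error 0.32, edgeR adjusted p = 1.77e-06, higher in 10 of 10 tumors than in any normal kidney) and Ripk1, a kinase of cell death signaling (0.35, standard error 0.09, edgeR adjusted p = 0.00266, above every normal kidney in 6 of 10 tumors). Ripk1 was no longer called with library totals (adjusted p = 0.135, with 0.000383 to 0.135 over its alternatives). Wrnip1, a helicase-interacting protein (log2 fold change -0.15, edgeR adjusted p = 0.071), and Nqo2, a quinone reductase (0.03, edgeR adjusted p = 0.908), were not called. Wrnip1 was called lower with library totals, with DESeq2, without normal kidney 7, without normal kidney 9 and without these 2 and tumor 7, and the sign of Nqo2 turned with library totals.

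**Figure D4:**
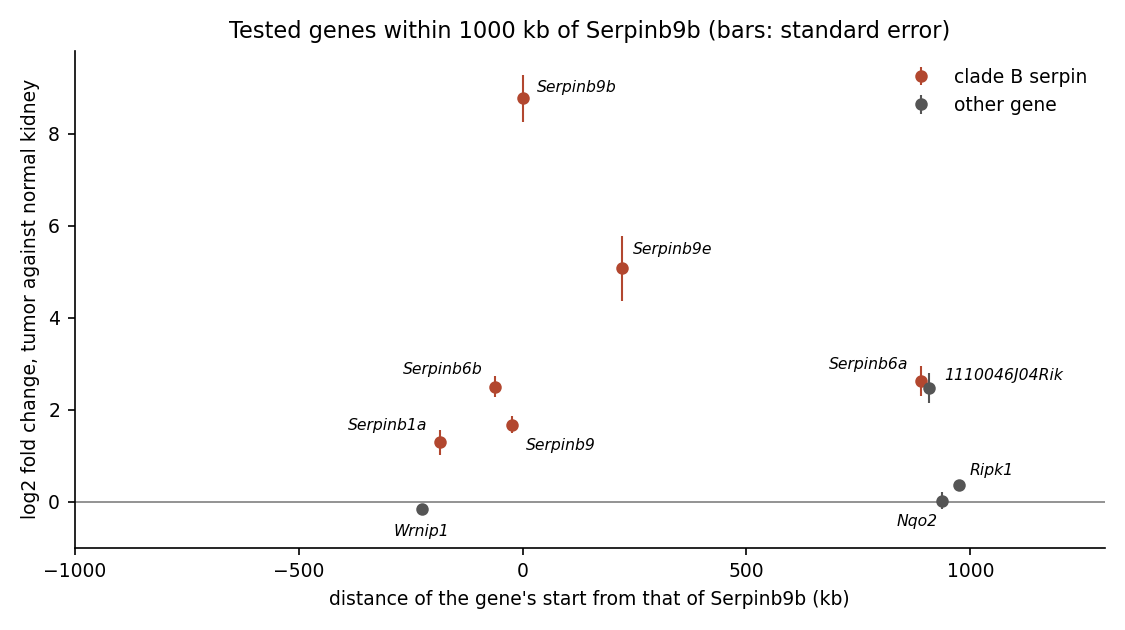
Log2 fold change, tumor against normal kidney, of the genes tested within 1000 kb of Serpinb9b, plotted by the distance of their starts from that of Serpinb9b in kb, with standard errors as bars. Clade B serpins (red) lie between 1.30 and 8.76, while Wrnip1, Nqo2 and Ripk1 (grey) lie between -0.15 and 0.35 and 1110046J04Rik, inside Serpinb6a, lies at 2.48.

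Serpins of other clades mostly act outside cells. Of 40 such genes 18 were tested, 4 were called higher in tumors, 6 lower and 8 were not called, beside 23.6% higher and 23.8% lower of all genes tested, and their median log2 fold change was -0.67. Among the higher ones were Serpind1, a thrombin inhibitor (log2 fold change 3.03, edgeR adjusted p = 6.07e-05, 8 of 10 tumors above every normal kidney), Serpinf1, the antiangiogenic factor PEDF (2.20, edgeR adjusted p = 0.0036, 4 of 10), and Serpina10, an inhibitor of clotting factors (1.60, edgeR adjusted p = 0.0172, 3 of 10). Serpinf1 fell to a log2 fold change of 1.01 without tumor 7 (edgeR adjusted p = 0.00931). Serpina10 was not called without tumor 6 (adjusted p = 0.0914, with 0.00487 to 0.0914 over its alternatives). With the replicate number, not stated to mark mice, as a block neither Serpinf1 (edgeR adjusted p = 0.081) nor Serpina10 was called. Of the alpha-1-antitrypsin group, Serpina1d stood at 94 to 6010 counts in normal kidneys and 0 to 6 in tumors (log2 fold change -10.16, edgeR adjusted p = 8.02e-10), and Serpina1f at 235 to 6479 and 0 to 13 (-9.36, edgeR adjusted p = 1.60e-09), each below every normal kidney in 10 of 10 tumors. Both passed the filter through the normal kidneys alone, so that a call was bound to follow. Serpina1b, still at 5 to 118 counts in tumors (-3.82, 9 of 10 tumors below every normal kidney), Serpina1a, still at 22 to 387 counts (-3.63, and -4.14 to -2.64 with 1 library left out, 4 of 10), the antithrombin gene Serpinc1 (-2.67, 8 of 10) and the antiplasmin gene Serpinf2 (-1.63, 7 of 10) were called lower too, with edgeR adjusted p between 2.48e-05 and 0.00251.

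Of a list of proteases that clade B serpins are known to block, the granzymes and neutrophil proteases had low counts in both tissues, and Furin did not. The list is not complete, and the plasminogen activators that Serpinb2 inhibits, for example, are not on it. Of the 15 genes of the protease list, which holds 10 granzymes, the pore-forming protein perforin and 4 other proteases, 3 were tested and 1 was called. Of all genes tested 47.5% were called in either direction, so nothing is read from this count. Gzmm, the granzyme that Serpinb9b inhibits, had 5 to 39 counts in tumors and 2 to 27 in normal kidneys (log2 fold change 0.52, edgeR adjusted p = 0.266). Gzmb, the target of Serpinb9, had 1 to 45 counts in tumors and 0 to 5 in normal kidneys, and Gzma, the target of Serpinb6b, 0 to 7 and 0 to 8. Prf1, which encodes perforin, had 0 to 5 counts in tumors and 1 to 20 in normal kidneys. None of Gzma, Gzmb or Prf1 passed the filter, and without it edgeR called Gzmb (log2 fold change 2.20, adjusted p = 0.0135) and Gzmc (2.59, adjusted p = 0.0214) higher and Prf1 lower (-1.86, adjusted p = 0.0118), all on few counts. Gzmc, Gzmd, Gzme, Gzmf and Gzmg had at most 7 counts in any library, Gzmk at most 25 and Gzmn none. Of the neutrophil proteases that Serpinb1a inhibits, Elane had at most 5 counts and Ctsg at most 1, whereas Prtn3 had 5 to 140 counts in tumors and 1 to 24 in normal kidneys (log2 fold change 1.63, edgeR adjusted p = 0.0264, 4 of 10 tumors above every normal kidney). Prtn3 was not called without tumor 6 (adjusted p = 0.10), without tumor 7 (0.0511) or with the replicate number as a block (0.21), with 0.0121 to 0.21 over its alternatives. Furin, at 314 ± 54.7 CPM (SD, n = 10) in tumors against 286 ± 66.7 CPM in normal kidneys, was not called (0.13, edgeR adjusted p = 0.446) and its sign turned with library totals.

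Markers of leukocytes were looked at because leukocytes also carry these serpins. The cytotoxic lymphocyte list of 14 genes summed to a lowest, median and highest level of 0.512, 1.96 and 6.69 CPM in tumors against 1.21, 7.14 and 13.6 CPM in normal kidneys. The gene with the largest part of a list's CPM, a measure that favours long genes, is named with each list, here Cd8a, although Nkg7 had more RPKM (0.477 against 0.152 in tumors). Of the list 2 genes were tested, Cd8a was called lower (log2 fold change -1.35, edgeR adjusted p = 0.045) and none higher. The macrophage list of 10 genes, with most CPM from Lyz2, summed to 404, 612 and 2658 CPM in tumors against 176, 264 and 667 CPM in normal kidneys, and 8 of its 10 genes were called higher and none lower. Of all genes tested 23.6% were called higher and 23.8% lower, the shares to set beside the calls of every marker list. Serpinb9 was lowest in tumor 7, where that list was highest. The neutrophil list of 9 genes, with most CPM from S100a9, summed to 1.88, 4.31 and 426 CPM in tumors against 1.98, 6.00 and 37.9 CPM in normal kidneys, with 1 of 4 tested genes called higher. Mpo, a defining gene of neutrophil granules, had at most 1 count in any library.

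Sums of the dendritic cell and B cell lists had lower medians in tumors. Their calls stand beside 23.8% called lower of all genes tested. The dendritic cell list of 6 genes, with most CPM from Zbtb46, summed to 9.30, 15.1 and 23.7 CPM in tumors against 16.0, 18.4 and 29.0 CPM in normal kidneys, with 3 of 5 tested genes called lower and none higher. The B cell list of 5 genes, with most CPM from Jchain, summed to 1.22, 2.98 and 13.6 CPM in tumors against 5.44, 41.2 and 154 CPM in normal kidneys, with both tested genes called lower. The mast cell list of 6 genes, with most CPM from Kit, which kidney epithelium also expresses, summed to 8.31, 18.02 and 60.2 CPM in tumors against 7.67, 27.8 and 41.9 CPM in normal kidneys, and its 1 tested gene, Kit, was not called. That sum mostly shows Kit: Cpa3 (1.31 against 0.241 CPM on average), Tpsb2 (1.83 against 0.290), Cma1 (1.29 against 0.241) and Mcpt4 (0.770 against 0.197), named after their values were seen, had higher means in tumors, with 3 to 5 of 10 tumors above every normal kidney, and Ms4a2 a lower one (0.0724 against 0.424), all with too few counts to be tested. The macrophage list was thus higher in tumors along with the 6 serpins, and the sums of the lymphocyte, dendritic and B cell lists were not. The part of any of these cells in the serpin levels was not tested.

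Stroma and kidney epithelium were followed in the same way, beside 23.6% called higher and 23.8% called lower of all genes tested. The endothelial list of 7 genes, with most CPM from Plvap, summed to 396, 519 and 1108 CPM in tumors against 514, 612 and 662 CPM in normal kidneys, with 1 of 7 called higher. The fibroblast list of 6 genes, with most CPM from Col1a2, summed to 102, 152 and 3793 CPM in tumors against 221, 298 and 854 CPM in normal kidneys, with 1 of 6 called lower. Per length Col1a1 had more than Col1a2 in that list (31.7 against 17.6 RPKM in tumors). The proximal tubule list of 10 genes, with most CPM from the endocytic receptor Lrp2, summed to 981, 5388 and 9081 CPM in tumors against 1388, 9179 and 11913 CPM in normal kidneys, with 4 of 9 tested genes called lower and none higher. Lists of distal segments were far lower in tumors. The loop of Henle list of 5 genes, with most CPM from Umod, summed to 21.3, 95.3 and 161 CPM in tumors against 3682, 5938 and 9437 CPM in normal kidneys, with 4 of 5 called lower. The collecting duct list of 6 genes, with most CPM from Aqp2, summed to 0.129, 1.32 and 31.9 CPM against 192, 601 and 1202 CPM, with all 5 tested genes called lower. The podocyte list of 5 genes, with most CPM from Podxl, summed to 135, 203 and 272 CPM against 121, 662 and 982 CPM, with 4 called lower. The kidney epithelium list of 6 genes, with most CPM from Cdh16, summed to 911, 1517 and 1637 CPM against 1131, 1648 and 2283 CPM, with 1 called higher and 3 lower. The genes of distal segments called lower passed the filter through the normal kidneys alone, so that their calls add little to the sums. No gene of any marker list was at 0 in all 20 libraries.

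The contrast of tumor with normal kidney does not fix how the genes vary together among the 10 tumors, so relations within tumors were tested. The genes and lists were chosen with earlier results of these data known, so these tests are not free of that choice. Across the 15 pairs of the 6 serpins, none passed a Benjamini-Hochberg adjusted p of 0.05 by Pearson's r or Spearman's rho in permutation tests (two-sided, 100000 resamples), and 2 pairs had an unadjusted p under 0.05 by either measure. Serpinb6a and Serpinb6b had r = 0.716 (permutation p = 0.0203, adjusted 0.305) and rho = 0.794 (permutation p = 0.00829, adjusted 0.105), and r = 0.668 without tumors 5 and 6 (exact permutation p = 0.0653). Serpinb9 and Serpinb8 had r = 0.642 (permutation p = 0.0449, adjusted 0.337) and rho = 0.758 (permutation p = 0.0141, adjusted 0.105), and r = 0.603 without tumors 3 and 7 (exact permutation p = 0.11). Serpinb9b went with none of the other 5, its r lying between -0.211 and 0.0447. Without tumors 4 and 7 all 5 values were negative, between -0.493 and -0.217 (exact permutation p from 0.203 to 0.624), so that this range depended on those 2 tumors. Tumor 1 was highest for Serpinb9b, tumor 5 for Serpinb6a, tumor 8 for Serpinb6b, tumor 3 for Serpinb9, tumor 2 for Serpinb1a and tumor 6 for Serpinb8, a different tumor for each gene.

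None of the 18 relations of the 6 serpins with the cytotoxic lymphocyte, macrophage and proximal tubule lists (mean log2 CPM of their genes) passed the adjusted threshold in the same permutation tests, with 2 at an unadjusted p under 0.05 by r and 1 by rho. Both were of Serpinb9. With the proximal tubule list it had r = 0.762 (permutation p = 0.00908, adjusted 0.163) and rho = 0.745 (permutation p = 0.0172, adjusted 0.31), and r = 0.666 without tumors 7 and 9 (exact permutation p = 0.0671). With the macrophage list it had r = -0.689 (permutation p = 0.0247, adjusted 0.222) and rho = -0.539 (permutation p = 0.113, adjusted 0.457), and r = -0.163 without tumors 7 and 9 (exact permutation p = 0.691), so that this value rested on those 2 tumors. Serpinb9b had r = 0.471 with the cytotoxic lymphocyte list (permutation p = 0.165, adjusted 0.645; rho = 0.442, permutation p = 0.203, adjusted 0.457; r = 0.139 without tumors 1 and 9, exact permutation p = 0.721), r = -0.0162 with the macrophage list (permutation p = 0.966; rho = 0.455, permutation p = 0.193; r = 0.683 without tumors 7 and 9, exact permutation p = 0.0682, adjusted 0.409) and r = -0.0618 with the proximal tubule list (permutation p = 0.854; rho = -0.152, permutation p = 0.682; r = -0.427 without tumors 7 and 9, exact permutation p = 0.299). Serpinb9 had r = 0.518 with the cytotoxic lymphocyte list (permutation p = 0.125, adjusted 0.645; rho = 0.624, permutation p = 0.0604, adjusted 0.457), and r = 0.761 without tumors 1 and 9 (exact permutation p = 0.0288, adjusted 0.409). The value with the macrophage list for Serpinb9b thus also depended on tumors 7 and 9. Values with the cytotoxic lymphocyte list rest on low counts, since only 2 of its 14 genes passed the filter.

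**Figure D5:**
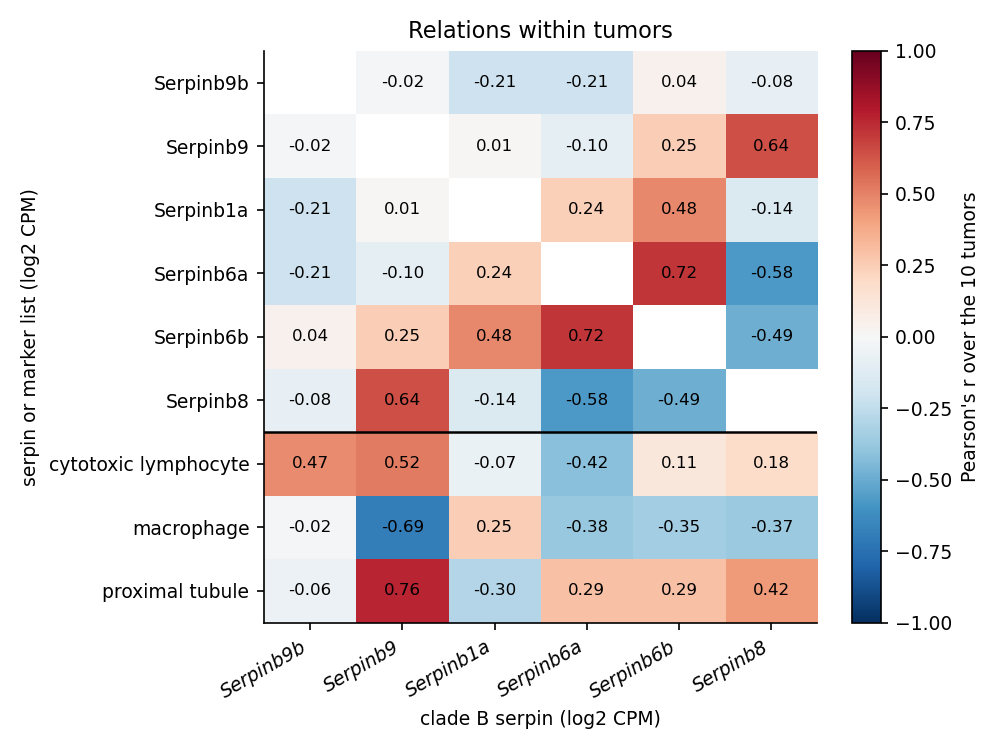
Pearson's r over the 10 tumors for each pair of the 6 clade B serpins (above the line) and for each serpin with 3 marker lists (below it), from log2 CPM, with red for positive and blue for negative values. The largest values are 0.762 for Serpinb9 with the proximal tubule list, 0.716 for Serpinb6a with Serpinb6b and -0.689 for Serpinb9 with the macrophage list, and none passed the adjusted threshold.

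The genes whose log2 CPM was most like that of Serpinb9b over the 10 tumors, among 13694 tested protein-coding genes, were Dap (r = 0.929), Gusb (0.909), Ctsd (0.905), Prkcsh (0.895), Ppme1 (0.882), Eri3 (0.88), Osbpl7 (0.866), Desi1 (0.865), Cst3 (0.859) and Lancl2 (0.847). They are given as a description with no test, being the highest of 13694 values. Gusb and Ctsd encode lysosomal enzymes and Cst3 an inhibitor of cysteine proteases. Dap (log2 fold change 1.44), Gusb (2.24) and Ctsd (1.77) were called higher in tumors by edgeR along with Ppme1, Eri3 and Lancl2, and Prkcsh, Osbpl7, Desi1 and Cst3 were not called. These calls stand beside 23.6% called higher of all genes tested. The 5 other serpins ranked between 6380 and 10582 in the same order.

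Within the 10 normal kidneys the same relations are a description of the other group, for the 5 serpins with a median count of at least 10 there. Serpinb1a was lower where the proximal tubule list was higher (r = -0.889, permutation p = 0.00103, adjusted 0.00773; rho = -0.673, permutation p = 0.0389, adjusted 0.195). Without normal kidneys 5 and 7 this was r = -0.49 (exact permutation p = 0.221), so that it rested on those 2 libraries, which also led the tubule injury list. Serpinb1a also ran against the cytotoxic lymphocyte list (r = -0.844, permutation p = 0.00096, adjusted 0.00773; rho = -0.782, permutation p = 0.0109, adjusted 0.129), with r = -0.855 without normal kidneys 7 and 8 (exact permutation p = 0.00623, adjusted 0.0934). Serpinb6a had r = -0.804 with the proximal tubule list (permutation p = 0.00463, adjusted 0.0232; rho = -0.588, permutation p = 0.0795, adjusted 0.245) and r = -0.537 without normal kidneys 5 and 7 (exact permutation p = 0.183). Serpinb6a with the cytotoxic lymphocyte list had r = -0.713 (permutation p = 0.0121, adjusted 0.0455; rho = -0.455, permutation p = 0.19, adjusted 0.357), and r = -0.24 without normal kidneys 7 and 8 (exact permutation p = 0.585). Of the 15 relations these 4 had an adjusted p under 0.05 by r and none had one by rho. Only that of Serpinb1a with the cytotoxic lymphocyte list kept its size without the 2 farthest libraries. Only 2 of the 14 genes of that list passed the filter, so most of its mean log2 CPM came from genes with few counts. Normal kidneys 7, 8 and 5, which led the tubule injury list, also had the lowest cytotoxic lymphocyte sums (1.21, 1.95 and 3.12 CPM). Number 5 was still among the libraries kept, and the part of tubule injury in this relation was not tested.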

How the data were processed

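Gene counts of 20 poly A RNA-sequencing libraries were used as deposited: the authors gave 1 table of raw counts per gene, with mm10 named as the genome build in the submitters' processing notes, and the aligner, counter and strand setting are not given in the sources used here. Gene starts and ends of all 28 clade B serpins were those of GENCODE M21. The 6 genes and all lists were chosen with earlier results of these data known. Genes were filtered with filterByExpr (minimum count 10), scaled with TMM factors and fitted with edgeR 4.0.16 (R 4.3.3) by the quasi-likelihood test over 15354 genes, and p-values were adjusted by Benjamini-Hochberg over all of them and called under 0.05. Log2 CPM used a prior count of 2. The p-values measure the spread between 10 libraries a group. The script was tested on simulated counts. Alternatives were library totals, DESeq2 1.42.0, no filter, the replicate number as a block, each library left out, and, for relations, a prior count of 0.5 and the 2 farthest tumors left out. Named were the 6 genes, other clade B serpins of at least 1 CPM in a group, other serpins called with a log2 change of at least 1 (1 of them is not reported here), the protease list, tested genes within 1000000 bases, the 10 protein-coding genes most correlated with Serpinb9b, and the leading gene of each marker list (cytotoxic lymphocyte, macrophage, neutrophil, mast cell, dendritic cell, B cell, endothelial, fibroblast, proximal tubule, loop of Henle, collecting duct, podocyte, kidney epithelium, tubule injury) with its markers at 0. No 2 libraries of a group agreed within sampling noise (in 90 pairs the lowest ratio of chi-square to degrees of freedom was 13.98).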

Additional observations from a re-analysis of the deposited data

Results flagged for a closer look

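Among 24 groups of 10 libraries, covering the 6 serpins and 6 marker lists, 7 had a library whose gap to its nearest neighbour took up more of the group's range on the log2 scale than chance gives in about 1 in 20 groups (Dixon's ratio). Serpinb6a was at 325 CPM in normal kidney 7, against 101 CPM in the next normal kidney. Serpinb8 was at 25.1 CPM in normal kidney 6, against 17.7 CPM in the next. The fibroblast list was highest in normal kidney 7 (854 CPM, next 436 CPM) and in tumor 7 (3793 CPM, next 457 CPM). Tumor 7 also had the highest neutrophil list (426 CPM, next 28.0 CPM) and the lowest proximal tubule list (981 CPM, next 3034 CPM). The macrophage list was at 667 CPM in normal kidney 9, against 357 CPM in the next normal kidney. The causes were not tested.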

How the results depend on the processing

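The log2 fold changes of the 6 serpins kept their direction under all 25 alternatives, and moved by more than the spread between libraries only for Serpinb6a, to 3.08 without normal kidney 7 and to 3.15 without tumor 7, normal kidney 7 and normal kidney 9, which was chosen after seeing the data (range with 1 library left out 2.53 to 3.08). Library totals shifted the median of all log2 fold changes from -0.02 to -0.14, and turned the sign of Furin (-0.0103) and Nqo2 (-0.105), both not called. Nqo2 also turned without tumor 10 (-0.0156), normal kidney 5 (-0.0723) or normal kidney 8 (-0.0216), within a range of -0.0723 to 0.085 with 1 library left out. Without the filter on low counts the calls grew because more genes were tested: 7 other clade B serpins were higher, 4 of the protease list were called (Prtn3, Gzmb and Gzmc higher, Prf1 lower), and 16 genes around Serpinb9b were called in either direction. With 1 library left out the other clade B serpins called higher were 1 to 2, and the protease list gave 0 to 1.

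The same replicate numbers in both groups are not stated to mark mice. Same-numbered libraries deviated together in 9 of 10 pairs (correlations from -0.143 to 0.377), and 8 of 10 tumors correlated best with their own number, a hint from the data. With the replicate number as a block 3979 genes were higher and 3886 lower, against 3631 and 3661, and the protease list gave 0 calls. Prtn3 (adjusted p = 0.21), Serpina10 (0.0726) and Serpinf1 (0.081) were not called in that fit. No relation within tumors passed the adjusted threshold under any of its 13 alternatives. Depth limits the granzymes, the cytotoxic lymphocyte list and the sparse Serpinb9 copies, where a count of 0 allows up to 0.110 to 0.189 CPM in a library.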
